A study of Mus musculus with 6 samples.

Results

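The MHC class II genes encode the proteins that load peptides of endocytosed antigens and show them to CD4+ T cells, and Ciita encodes the transactivator that switches these genes on. The 10 genes described here are Ciita, Cd74, H2-Aa, H2-Ab1, H2-Eb1, H2-Eb2, H2-DMa, H2-DMb1, H2-DMb2 and H2-Oa. They were taken by symbol from the 30587 rows of a table of read counts, where each matched 1 row, and all 10 passed the filter on low counts, as did 13249 rows in all. RNA was sequenced from dendritic cells grown from the bone marrow of C57BL/6 mice. The WT group (3 libraries) carried the Hif2afl/fl genotype, that is floxed alleles of Epas1, the gene for the transcription factor HIF-2α. The KO group (3 libraries) was CD11c-Cre;Hif2afl/fl, so it carried the same floxed alleles and a Cre recombinase under the control of CD11c, an integrin of dendritic cells, macrophages and some other leukocytes. The WT mice are not labelled as carrying Cre. All 6 cultures had received dimethyloxalylglycine (DMOG), which blocks the degradation of HIF α subunits, for 24 h, followed by the glycolipid α-galactosylceramide for 4 h. The contrast was therefore KO against WT under both agents, set up to ask how HIF-2α affects glycolipid priming by these cells.

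Class II molecules are dimers of an α and a β chain. They assemble in the endoplasmic reticulum around the invariant chain, the product of Cd74, which fills the groove and directs the complex to endosomes. There proteases degrade the invariant chain, and the DM dimer (H2-DMa with a H2-DMb chain) removes its last fragment and edits the peptides, while the DO dimer (H2-Oa with H2-Ob) restrains DM. Ciita does not bind DNA itself. It docks on factors that sit on a shared promoter module, in which an X box is bound by the RFX complex and a Y box, a reversed CCAAT sequence, by NF-Y. In dendritic cells Ciita is transcribed from promoters that differ from those of B cells and of cells treated with interferon-γ, and counts per gene do not tell these promoters apart.

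Promoter stretches are shown first, since they show in which of the genes the letters searched for from this module were found. RefSeq promoter windows of build GRCm38.p6, which run from 250 bases before to 50 bases after a start site, were taken by symbol. Windows of 7 of the 10 genes were used, as 8 windows. Any window of the 10 genes on certain chromosomes was left out beforehand. The 7 genes are therefore a partial set, in part by choice, and the counts of genes below hold for them only. Of these 7 genes, 6 had GATTGG, the core of the Y box, on the gene's own strand with its first base 110 to 40 bases before the start, and 4 of the 6 also had AACNGATG, part of the X box, upstream of it. The same pair of letters, with AACNGATG followed by GATTGG within 60 bases, stood in 8 of all 32851 windows (0.0244%), and 4 of those 8 belonged to H2-Eb1, H2-Eb2, H2-DMb1 and H2-DMb2. On either strand and at any position, GATTGG was found in 16.1% and AACNGATG in 2.32% of windows, and GATTGG in the stated interval on the gene's strand in 3.67%. The motifs do not overlap each other, and the letters and the interval were chosen after these windows had been looked at. The stretches below are on the gene's strand, 5′ to 3′, at chr17:34305752-34305822 (plus) for H2-Eb1, chr17:34325519-34325589 (plus) for H2-Eb2, chr17:34145103-34145173 (plus) for H2-DMb2, chr17:34287857-34287927 (minus) for H2-Aa and chr17:34092280-34092350 (plus) for H2-Oa, and capitals mark the matched letters. The RefSeq starts of H2-DMb1, H2-DMb2, H2-DMa, H2-Oa and H2-Eb2 lie inside the longer spans that GENCODE gives these genes. The stretch of H2-DMb1 is not shown, because much of it lies inside an annotated exon of the same strand.
H2-Eb1: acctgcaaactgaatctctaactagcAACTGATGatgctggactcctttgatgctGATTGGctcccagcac
H2-Eb2: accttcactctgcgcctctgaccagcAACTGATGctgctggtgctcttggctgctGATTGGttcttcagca
H2-DMb2: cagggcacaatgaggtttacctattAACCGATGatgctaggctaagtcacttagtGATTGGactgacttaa
H2-Aa: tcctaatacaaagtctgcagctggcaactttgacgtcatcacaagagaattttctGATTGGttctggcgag
H2-Oa: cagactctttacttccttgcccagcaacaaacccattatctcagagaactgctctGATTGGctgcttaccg
In H2-Eb1 and H2-Eb2 21 bases separate the 2 motifs, and in H2-DMb2 and H2-DMb1 22 bases do. Of the 2 windows of H2-DMa, 1 held GATTGG, 199 bases before its start, and the other held neither motif. A match describes the letters only, not a bound site. Only these exact letters were searched for, so a missing match does not show that a gene lacks an X box or a Y box.

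Library size and the checks of the labels come next. Total counts ran from 14668641 to 17884160 per library. The number of rows holding any read was 25408 for WT 2 and 22275 for KO 1, and from 18763 to 19513 for the other libraries. Epas1, the targeted gene, had 339, 352 and 349 reads in WT 1 to 3 and 175, 214 and 198 in KO 1 to 3, so every KO library was below every WT library. Itgax, which encodes CD11c, averaged 205 ± 16.4 CPM across WT and 179 ± 32.4 CPM across KO libraries (SD, n = 3 each; CPM is the read count scaled to TMM library size; edgeR adjusted p = 0.21). The summed level of 10 dendritic cell markers was 1777 to 1891 CPM in WT and 2243 to 2761 CPM in KO, with Cd209a under 1 CPM in every library. Most of that sum and of its difference was Ccr7, the gene of a chemokine receptor of mature dendritic cells, which averaged 1383 ± 65.8 CPM over the WT and 2029 ± 279 CPM over the KO libraries (SD). That of 12 macrophage and monocyte markers was 20488 to 22983 CPM in WT and 17625 to 17852 CPM in KO, and 2539 to 2679.9 against 3227 to 3551 CPM without the lysozyme gene Lyz2. B cells also express class II genes, but Cd79a, Ms4a1, Pax5, Ebf1 and Fcer2a were under 1 CPM in every library, and the 8 B cell markers summed to 8.69 to 10.2 CPM in WT and 6.14 to 7.23 CPM in KO, most of it from Cd22. Summed markers of T cells were 1.18 to 1.62 CPM in WT and 1.36 to 1.75 CPM in KO, those of granulocytes 34.7 to 49 and 41.9 to 61.5 CPM, those of plasmacytoid dendritic cells 24.8 to 26.6 and 32.1 to 38.4 CPM, and those of mast cells and basophils 4.57 to 6.56 and 9.06 to 11.9 CPM. In such bulk samples fewer cells of a type and less RNA per cell cannot be told apart, and the part of the mix of macrophages and dendritic cells in the results below was not tested.

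Class II genes were lower in KO. Of the 10 genes, 9 fell and 0 rose (edgeR quasi-likelihood test, adjusted p under 0.05 over all 13249 tested rows), where 12% of all tested genes fell and 13.8% rose, 25.8% in either direction. The median log2 fold change of the 10, KO over WT, was -0.47, against -0.01 for all tested genes. At an unadjusted p under 0.05, all 10 were lower and 0 were higher, where 2374 of the 13249 tested genes were lower and 2559 higher. The DESeq2 Wald test and limma-voom each gave 9 lower and 0 higher of the 10. In the same 9 genes every KO library lay below every WT library, a pattern seen in 20% of tested genes, and in 40.4% when separation in either direction is counted. The size of the fall differed among genes, from 1.84-fold for H2-DMb2 to 1.18-fold for H2-DMa, and H2-Oa did not pass. Whether each library had its own mouse or culture is not labelled. The p-values therefore reflect only how far these 6 libraries vary, and that variation may be technical.

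**Figure D1:**
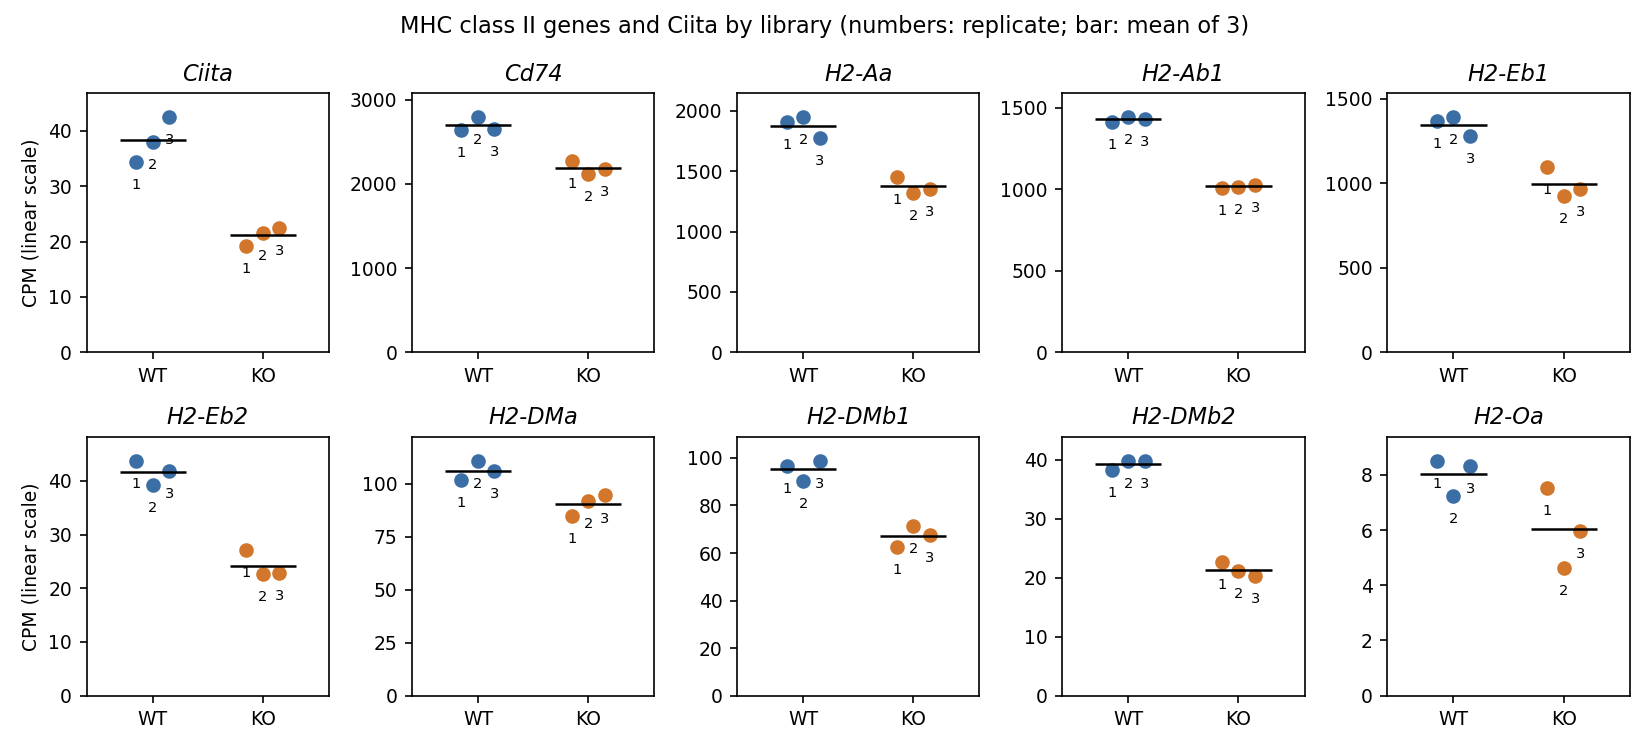
CPM of each of the 10 genes on a linear axis from 0, with 1 point per library (replicate number beside it), WT in blue and KO in orange, and a bar at the mean of 3. In 9 genes the KO points lie wholly below the WT points, while in H2-Oa the KO 1 point, at 7.51 CPM, lies within the WT range.

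Ciita (chromosome 16, 10480059 to 10528418, plus strand, mm10), the transactivator, had 582, 587 and 623 reads in WT 1 to 3 and 351, 364 and 388 in KO 1 to 3. Scaled to depth, these were 34.4, 38 and 42.5 CPM in WT and 19.2, 21.6 and 22.5 CPM in KO. The genotypes did not overlap, and the lowest WT library was well above the highest KO library. The log2 fold change was -0.86 ± 0.10 (SE), or 1.81-fold lower (edgeR adjusted p = 2.25e-05). Over the 16 alternative analyses it lay between -0.98 and -0.77 and passed in each.

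Cd74 (chromosome 18, 60803848 to 60812652, plus strand), which encodes the invariant chain and also a receptor subunit for the cytokine MIF, was the most abundant of the 10. It stood at 2641, 2795 and 2655 CPM in WT 1 to 3 and at 2276, 2113 and 2181 CPM in KO 1 to 3. All KO libraries were lower, by a smaller factor than for Ciita, with a log2 fold change of -0.30 ± 0.04 (SE), or 1.23-fold (edgeR adjusted p = 2.15e-04). Cd74 lies on another chromosome than the H2 genes.

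H2-Aa and H2-Ab1 encode the α and β chains of I-A, the class II molecule that C57BL/6 mice show at the surface. H2-Ab1 (chromosome 17, 34257689 to 34269419, plus strand) had 1412, 1442 and 1430.2 CPM in WT 1 to 3 and 1008, 1015 and 1025 CPM in KO 1 to 3. Libraries of 1 genotype were nearly alike for this gene, with an SD of 15 CPM in WT and 8.91 CPM in KO, and the gap between genotypes was far wider. Its log2 fold change was -0.49 ± 0.05 (SE), or 1.41-fold lower (edgeR adjusted p = 4.83e-06). H2-Aa (chromosome 17, 34282744 to 34287823, minus strand) had 1906, 1949 and 1775 CPM in WT and 1451, 1318 and 1353 CPM in KO. It fell by much the same factor as its partner, with a log2 fold change of -0.45 ± 0.05 (SE), or 1.37-fold (edgeR adjusted p = 3.80e-05).

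H2-Eb1 encodes the β chain of I-E, whose α chain gene is defective in C57BL/6 mice. That gene, listed as H2-Ea-ps, had 2, 1 and 1 reads in WT and 0 in every KO library, too few for a test. H2-Eb1 itself (chromosome 17, 34305867 to 34316674, plus strand) was abundant, at 1371, 1392 and 1278 CPM in WT 1 to 3 and 1096, 923 and 965 CPM in KO 1 to 3. KO 1 was the highest of the KO libraries here, as it was for H2-Aa, but stayed below all WT libraries. The log2 fold change was -0.44 ± 0.07 (SE), or 1.35-fold lower (edgeR adjusted p = 2.98e-04). H2-Eb2 (chromosome 17, 34325665 to 34341412, plus strand), a β chain gene next to it, was far scarcer, at 43.8, 39.3 and 41.9 CPM in WT and 27.2, 22.7 and 22.8 CPM in KO. It fell 1.72-fold, by a log2 fold change of -0.78 ± 0.09 (SE; edgeR adjusted p = 2.50e-05).

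The DM genes, which encode the peptide editor, fell unequally. H2-DMa (chromosome 17, 34119541 to 34139101, plus strand), the gene of the α chain, had 102, 111 and 106 CPM in WT 1 to 3 and 84.8, 92.1 and 94.5 CPM in KO 1 to 3. The groups did not overlap, but the gap from the lowest WT to the highest KO library was narrow, and the log2 fold change was -0.23 ± 0.06 (SE), or 1.18-fold lower (edgeR adjusted p = 0.0113). H2-DMa did not pass without WT 2 (log2 fold change -0.20, edgeR adjusted p = 0.088) or without both WT 2 and KO 1 (-0.15, edgeR adjusted p = 0.144), and over all its alternatives the adjusted p lay between 4.24e-04 and 0.144. The gene overlaps Brd2, which lies on the opposite strand and rose, and reads of the overlap cannot be told apart where strand was not used. H2-DMb1 (chromosome 17, 34153072 to 34160230, plus strand), a β chain gene, had 96.5, 90.2 and 98.9 CPM in WT and 62.7, 71.2 and 67.6 CPM in KO. H2-DMb2 (chromosome 17, 34143307 to 34151555, plus strand), its neighbour and near copy, had 38.3, 39.9 and 39.8 CPM in WT and 22.7, 21.1 and 20.3 CPM in KO. For both β chain genes the WT and KO libraries were well apart, and the log2 fold changes were -0.50 ± 0.06 for H2-DMb1 and -0.88 ± 0.08 for H2-DMb2 (SE; edgeR adjusted p = 6.47e-05 and 2.55e-06). Their single values are uncertain, because 369 of the 1355 words of 50 bases in the H2-DMb1 transcript also occur in H2-DMb2, and how such reads were counted was not stated. Of the 1375 words in the H2-DMb2 transcript, 451 occur in at least 1 of 297 other genes, H2-DMb1 among them. Their sum does not depend on a split between the pair: it was 135, 130.1 and 139 CPM in WT and 85.3, 92.3 and 87.9 CPM in KO, again without overlap.

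H2-Oa (chromosome 17, 34092340 to 34095234, plus strand), which encodes the α chain of the DM inhibitor DO, was scarce. It had 144, 112 and 122 reads in WT 1 to 3, or 8.52, 7.25 and 8.32 CPM, and 137, 78 and 103 reads in KO 1 to 3, or 7.51, 4.62 and 5.97 CPM. KO 1 overlapped the WT libraries, and the log2 fold change of -0.41 ± 0.17 (SE) did not pass (edgeR adjusted p = 0.0987). Without KO 1 it was -0.60 and passed (edgeR adjusted p = 0.0175), as it did without WT 2 and KO 1 (-0.67, edgeR adjusted p = 0.017), and over all its alternatives the adjusted p lay between 0.017 and 0.304. Its transcript shares 21.7% of its words of 50 bases with BC051537, a gene on the other strand that was too low to be tested. H2-Ob, the gene of the DO β chain and not among the 10, was scarcer still (42, 36 and 25 reads in WT 1 to 3, against 44, 22 and 33 in KO 1 to 3), and its log2 fold change of -0.21 ± 0.27 did not pass (edgeR adjusted p = 0.62).

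**Figure D2:**
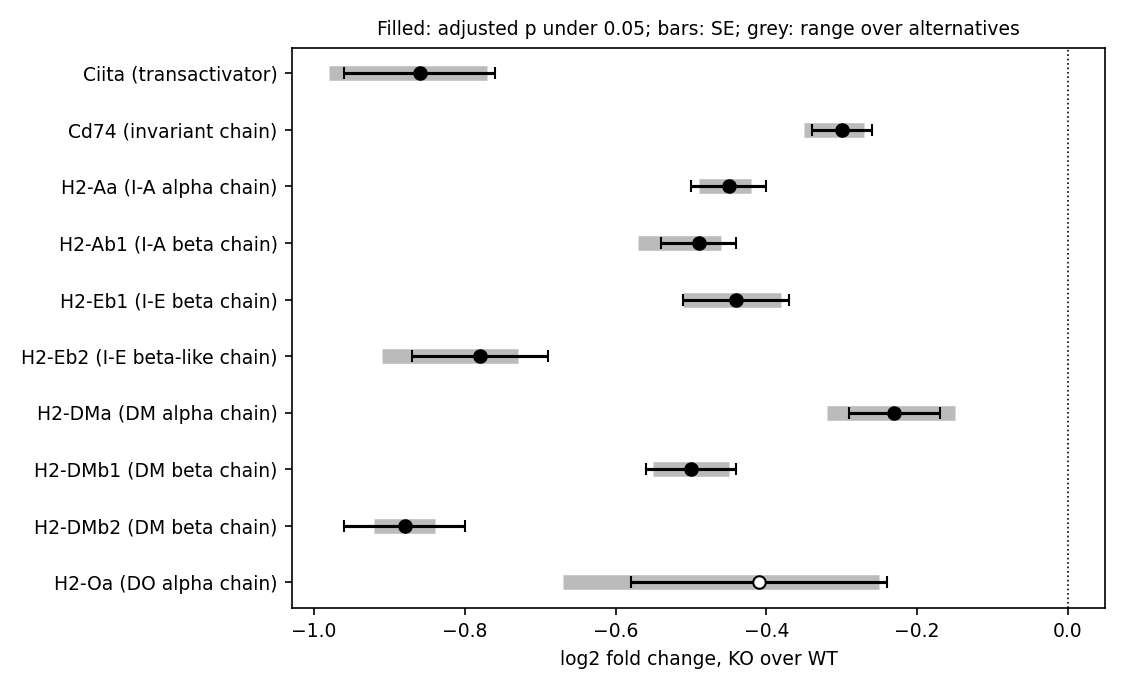
Log2 fold change, KO over WT, of each gene with its SE (black, n = 3 libraries per genotype), filled where the adjusted p was under 0.05, over a grey band from the lowest to the highest value in 16 alternative analyses. All points and bands lie below 0, and only the H2-Oa point, at -0.41, is open.

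Levels per length ordered the genes in tiers. On the scale of CPM per kilobase of the principal GENCODE transcript, the WT mean was 1913 ± 60.4 for Cd74, 1664 ± 80.2 for H2-Aa, 1178 ± 12.3 for H2-Ab1 and 807 ± 36.6 for H2-Eb1 (SD, n = 3). A wide gap followed, to 67.8 ± 3.2 for H2-DMb1, 64.1 ± 2.85 for H2-DMa and 27.6 ± 0.659 for H2-DMb2. H2-Eb2 at 12.3 ± 0.66, H2-Oa at 7.38 ± 0.625 and Ciita at 6.38 ± 0.673 were the scarcest. In WT neighbours in this order did not overlap, except H2-DMb1 with H2-DMa and H2-Oa with Ciita. In KO the order was the same but for H2-DMa, which stood above H2-DMb1, at 54.6 ± 3.05 against 47.8 ± 3.05 CPM per kilobase. Of the same neighbours, H2-Eb2 overlapped with H2-Oa in KO, while H2-DMb1 with H2-DMa and H2-Oa with Ciita did not. The 4 most abundant genes held 95.5% to 96.3% of the reads of the 10 in every library.

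The 10 genes together took 0.759%, 0.766% and 0.747% of all reads in WT 1 to 3 and 0.618%, 0.562% and 0.58% in KO 1 to 3. The share was lower in all 3 KO libraries, and its mean dropped by 0.171 percentage points, from 0.758% ± 0.00947 to 0.587% ± 0.0283 (SD, n = 3; two-sided exact permutation p = 0.1, the smallest that 3 against 3 allows). Without Cd74 the other 9 fell by 0.126 percentage points, from 0.491% to 0.365% of reads.

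Ratios within a library show which genes moved by unequal factors, independently of scaling. The H2-Ab1 to H2-Aa ratio was 0.762 ± 0.0376 in WT and 0.741 ± 0.0408 in KO (SD, n = 3), and the genotypes overlapped (exact permutation p = 0.6). The ratio of Cd74 to H2-Ab1 was 1.87, 1.94 and 1.86 in WT 1 to 3 and 2.26, 2.08 and 2.13 in KO 1 to 3. Thus the ratio was higher in every KO library than in any WT library. The H2-DMb2 to H2-DMb1 ratio was 0.396, 0.443 and 0.403 in WT and 0.362, 0.296 and 0.3 in KO. H2-Eb2 to H2-Eb1 was 0.0319, 0.0282 and 0.0328 in WT and 0.0248, 0.0246 and 0.0237 in KO. Both ratios were lower in every KO library than in any WT library, and that of the DM pair also depends on how their shared reads were counted, which is unknown. Each of these 3 ratios had an exact permutation p of 0.1 (two-sided), the smallest possible, and 0.167 after Benjamini-Hochberg adjustment over the 5 ratios. The H2-Oa to H2-DMa ratio overlapped, at 0.0836, 0.0652 and 0.0787 in WT and 0.0886, 0.0502 and 0.0632 in KO (exact permutation p = 0.6).

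**Figure D3:**
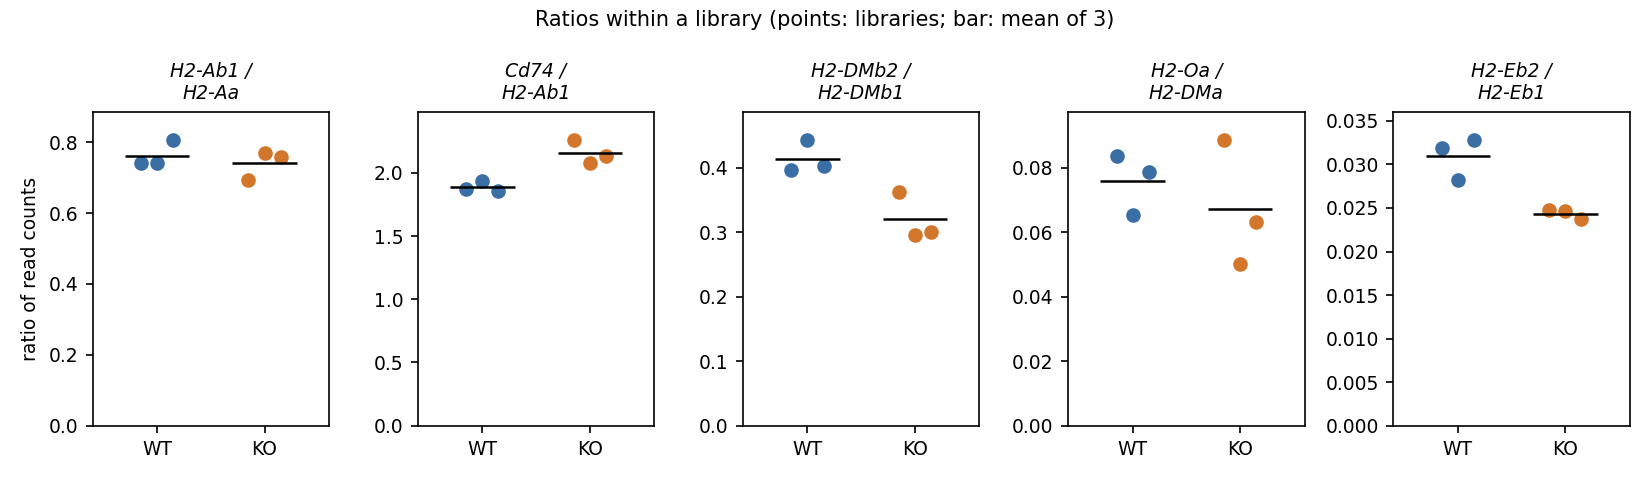
Ratio of read counts of 2 genes in each library, for 5 pairs, on linear axes from 0, with 1 point per library and a bar at the mean of 3. The ratios of Cd74 to H2-Ab1, H2-DMb2 to H2-DMb1 and H2-Eb2 to H2-Eb1 do not overlap between genotypes, and the other 2 do.

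The 8 described genes on chromosome 17 lie interleaved with H2-Ob, Brd2 and genes of class I presentation along 249.1 kb from H2-Oa to H2-Eb2 (34092340 to 34341412). Of the 6 other tested genes in that span, 5 rose, 0 fell and 1, H2-Ob, did not pass (edgeR; at an unadjusted p under 0.05, 5 were higher and 0 lower). The shares over all tested genes were 13.8% that rose and 12% that fell. At an unadjusted p under 0.05, 2559 of all 13249 tested genes were higher and 2374 lower. Tap1 and Tap2, which encode the peptide transporter of class I loading, rose 2.01-fold and 1.39-fold. Psmb8 and Psmb9, for immunoproteasome subunits, each rose 1.24-fold, and Brd2, for a bromodomain protein of chromatin, by a log2 fold change of 0.21 ± 0.06 (SE). Counted from the start of H2-Oa, Tap1 starts at 95.2 kb, between H2-DMb1 at 60.7 kb and H2-Ab1 at 165.3 kb, both of which fell. Within 100 kb outside the span 4 more genes were tested, of which H2-K1 rose 1.51-fold, 3 did not pass and 0 fell. Psmb9 and Tap1 overlap on opposite strands, so some of their reads may not have been told apart.

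**Figure D4:**
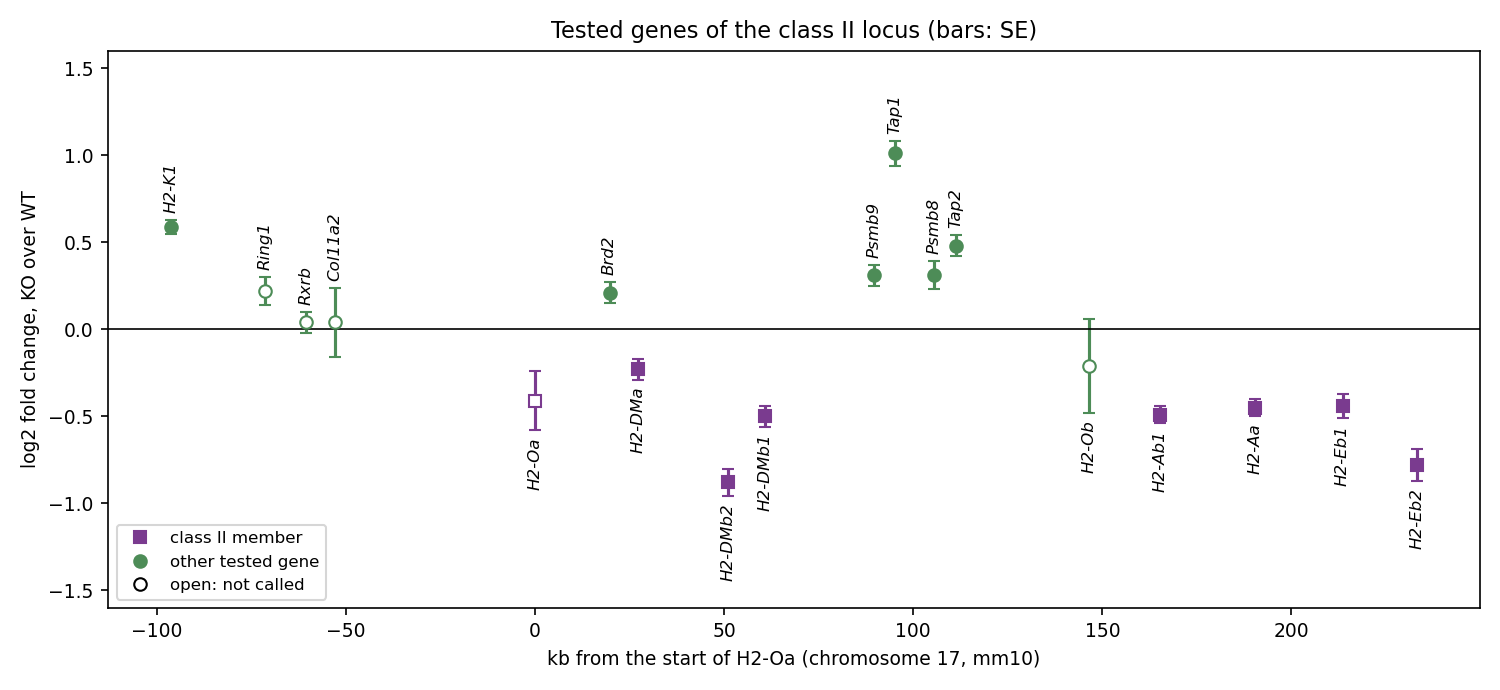
Log2 fold change, KO over WT, with SE, of every tested gene of the class II locus, against the distance of its start from that of H2-Oa in kb. The 8 described genes (squares) all lie below 0, whereas Brd2, Psmb9, Tap1, Psmb8 and Tap2, which lie between them, are above 0 and filled (adjusted p under 0.05).

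No gene of the factors on which Ciita docks fell in the edgeR test of all 6 libraries. Of 13 genes of the enhanceosome and its cofactors, 2 rose and 0 fell, with a median log2 fold change of 0.08 (edgeR; at an unadjusted p under 0.05, 4 were higher and 1 lower). Among all tested genes, 13.8% rose and 12% fell, so the counts at the adjusted threshold are near the general share. Without adjustment, 2559 of all 13249 tested genes were higher and 2374 lower at a p under 0.05. Those that rose were Crebbp, encoding a histone acetyltransferase (log2 fold change 0.33 ± 0.08, SE), and Smarca4, encoding a chromatin remodelling ATPase (0.26 ± 0.08), whose groups overlapped. Among the genes of the DNA-binding subunits, chosen after their values were seen, the log2 fold change ran from -0.32 ± 0.13 for Rfxank to 0.29 ± 0.13 for Rfx5, neither of which passed (edgeR adjusted p = 0.0886 and 0.13). For Rfxank every KO library still lay below every WT library, a pattern seen in 20% of tested genes. The count that rose was 0 without WT 1 or without KO 3, 1 without WT 2 or without KO 2 and 5 without WT 3, and 1 gene fell without KO 1.

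Genes of transcription factors that act on Ciita itself went both ways. Of 7 such genes, 4 rose and 1 fell, with a median log2 fold change of 0.18, and 3 rose without WT 1, WT 2, WT 3 or KO 3, with the replicate block or with offsets for GC content and length. Over all tested genes, 13.8% rose and 12% fell. Irf1, a factor of the interferon response, rose 1.31-fold and Irf8, a factor of dendritic cell development, 1.23-fold. Spi1, which encodes PU.1 and was named after its values were seen, rose 1.13-fold. Irf4, a factor of the dendritic cell subset that favours class II presentation, was the one that fell, from 23.7 ± 1.18 to 16.9 ± 1.56 CPM (SD, n = 3; 1.40-fold, edgeR adjusted p = 0.00224).

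Genes of later steps went both ways. Of 11 genes of invariant chain processing and lysosomal proteolysis, 3 rose and 1 fell, with a median of 0.08. Beside these counts and those of the next list, 13.8% of all tested genes rose and 12% fell. Ctsl, encoding cathepsin L, rose 1.43-fold, Sppl2a, for the membrane protease that cuts the last invariant chain stub, 1.17-fold, and Lgmn, for legumain, 1.12-fold. Ctsf, for cathepsin F, was 1.36-fold lower (edgeR adjusted p = 0.0382), and did not pass without WT 1, WT 2, KO 2 or KO 3, where 0 genes of the list fell. Ctss, encoding cathepsin S, the main invariant chain protease of dendritic cells, averaged 5043 ± 212 CPM over the WT and 5329 ± 47.6 CPM over the KO libraries (SD; chosen after its values were seen; edgeR adjusted p = 0.115). Of 10 genes of class II turnover and surface partners, 7 were matched to a tested row, namely Cd83 and tetraspanin genes. March1, March8 and March9 could not be matched, since dates stand in place of some symbols. Of the 7, 3 fell and 1 rose, with a median of -0.07. Those that fell were the tetraspanin genes Cd81 (1.58-fold), Cd9 (1.52-fold) and Cd53 (1.19-fold), and without KO 3 only 2 genes of the list fell. The tetraspanin genes Cd37, Cd63 and Cd82 (chosen with their values in view) did not pass, with log2 fold changes of 0.03, -0.07 and -0.01. Cd83, whose product protects class II from degradation, rose 1.31-fold.

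Class I presentation moved opposite to class II. All 10 genes of that list rose and 0 fell (edgeR; also 0 lower at an unadjusted p under 0.05, with the DESeq2 Wald test and with limma-voom), with a median log2 fold change of 0.45. Over all tested genes, 13.8% rose and 12% fell, and 2374 of 13249 were lower at an unadjusted p under 0.05. Nlrc5, the class I transactivator and a relative of Ciita, had 446, 472 and 429 reads in WT 1 to 3 and 881, 1054 and 886 in KO 1 to 3. It rose 1.88-fold (log2 fold change 0.91 ± 0.10, SE; edgeR adjusted p = 1.54e-05), close in size to the fall of Ciita and of opposite sign. Tapbp, for the loading protein tapasin, rose 1.64-fold and H2-D1, for a class I heavy chain, 1.28-fold. The lists were written with earlier results of these data known, so their directions are described and not put forward as independent evidence.

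**Figure D5:**
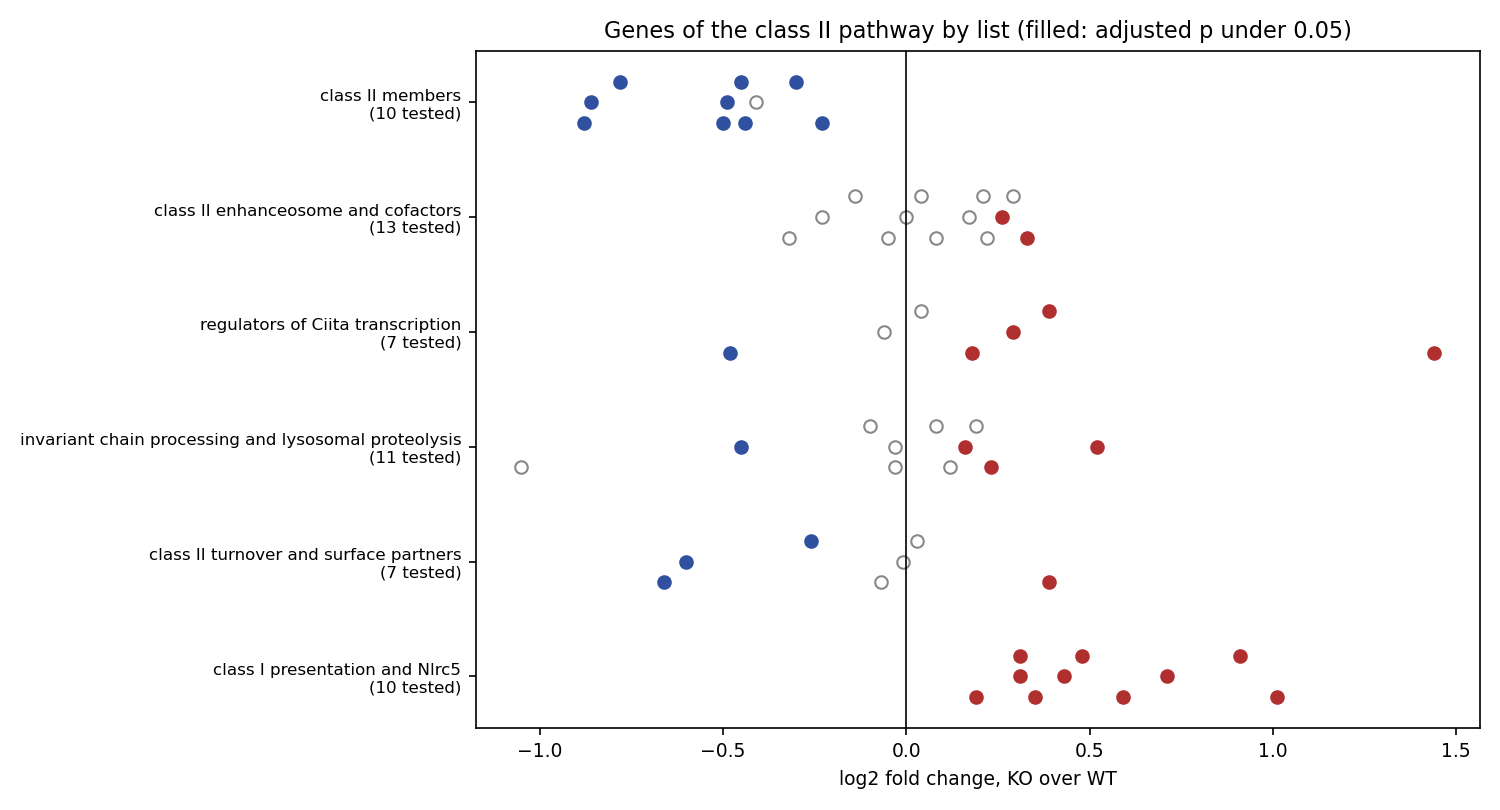
Log2 fold change, KO over WT, of each tested gene of 6 lists, 1 point per gene, filled red where it rose and filled blue where it fell (adjusted p under 0.05) and open where it did not pass. The class II genes lie left of 0 and the class I genes right of it, and the other 4 lists spread over both sides.

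Genes whose profile over the 6 libraries was most like that of Ciita were Pacs1, Adamtsl5 and Alkbh5, with Pearson's r of 0.9987, 0.9966 and 0.9951 among 10412 genes compared on log2 CPM. For H2-Ab1 they were Slc2a1, Pgk1 and F13a1, with r of 0.9991, 0.9989 and 0.9987. These values describe 6 libraries in 2 groups, so any gene that differs between genotypes with little spread comes out high: r was over 0.95 for 329 genes with Ciita and for 497 with H2-Ab1. Pacs1 fell by a log2 fold change of only -0.35 and F13a1 by -2.50, so likeness of profile did not mean likeness of size.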

How the data were processed

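The values deposited by the authors are unnormalized read counts by gene symbol, 1 column for each of 6 libraries. The submitters' processing notes name build mm10 and, without role or version, HTSeq, TopHat2, SAMtools, HISAT, HISAT2 and DESeq2. Not given in the sources used here are the annotation, whether strand was used and how multiply aligned reads were treated. Of 30587 rows, 13249 passed filterByExpr (minimum count 10) and held at least 99.75% of every library's counts. In 23 symbols the name is repeated, and the row with most reads kept it. A date stands where the symbol should be in 26 rows, which were matched to no gene.

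After TMM scaling, edgeR 4.0.16 (R 4.3.3) gave quasi-likelihood F tests with genotype as the only term, with Benjamini-Hochberg adjustment over all tested rows. A gene was said to fall or rise at an adjusted p under 0.05. The SE is the log2 fold change divided by the square root of F. CPM are edgeR's scaled counts. The common biological coefficient of variation was 8.48%. On 3 simulated tables of 13249 rows, made for KO against WT, 28.7% of the genes given a 1.25-fold change were recovered, as were 73.3% of those given 1.5-fold, 84% of those given 2-fold and 99.3% of those given 4-fold, while 7.56% of calls were false. Each size was given to 150 genes over the 3 tables. All sizes together made a far smaller share than the 25.8% of genes called in the data, so these rates may not carry over.

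Positions and transcript lengths come from GENCODE M21 (mm10), promoter windows from RefSeq. The 10 genes and all lists were chosen with earlier results of these data known. Named besides the 10 were Epas1, Nlrc5, up to 4 genes per list by lowest p, the tested genes between H2-Oa and H2-Eb2, and the 3 genes most like Ciita and the 3 most like H2-Ab1 (mean log2 CPM of at least 1), and some genes that this rule names are not reported here. Outside this rule, Spi1, Ctss, Rfx5, Rfxank, Cd37, Cd63, Cd82, H2-Ea-ps and the marker genes Itgax, Lyz2, Ccr7 and Cd22 were named after their values were seen. The 16 alternatives were DESeq2 1.42.0 size factors, library size only, no filter, a minimum of 10 counts throughout 1 genotype, the DESeq2 Wald test, voom of limma 3.58.1, robust dispersion, a replicate block, leaving out each library, WT 2 and KO 1 left out, and offsets for GC content and length (mgcv 1.9.3).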

Additional observations from a re-analysis of the deposited data

How the results depend on the processing

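Over the 16 alternatives the direction of all 10 genes was the same, and 8 of the 10 kept their side of the threshold in each, the exceptions being H2-DMa and H2-Oa as given above. The number of class II genes that fell was 9, and 8 to 10 with 1 library left out. With the replicate number as a block it was again 9, and 1506 genes fell and 1741 rose in all. Same-numbered libraries did not deviate together (correlations of 0.01, -0.11 and 0.08), and the best match of KO 1 was WT 2. With 3 libraries per genotype, this check cannot tell whether the numbers mark paired samples. Over all tested genes, 945 to 1622 fell and 1182 to 1992 rose with 1 library left out, the lowest without KO 3, and 1027 fell without WT 1. Scaling to library size only left 62.3% of calls higher, against 53.5%, and the GC and length offsets 47.2%. Genes of the enhanceosome list that rose numbered 0 to 5 and those that fell 0 to 1 with 1 library left out, and 1 rose and 1 fell with the GC and length offsets. Of the invariant chain list, 6 rose and 0 fell with library size only, 0 fell with no low-count filter, 5 rose and 0 fell with the DESeq2 Wald test, 5 rose and 2 fell with the GC and length offsets, and 0 to 1 fell with 1 library left out. The cause was not tested. The difference in the summed share of reads was -0.126 percentage points without Cd74, by construction, as fewer genes are summed. H2-Oa and H2-Ob had few reads, at most 144 and 44 in a library, and the part of depth in their not passing was not tested.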
